A study of Mus musculus with 9 samples.

Results

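Small leucine-rich proteoglycans are secreted matrix proteins, and the RNA of 10 genes that encode them was followed in cultured AdvSca1-SM cells: Lum, Dcn, Fmod, Bgn, Ogn, Prelp, Aspn, Omd, Podn and Kera. All 10 were found by symbol among the 55416 genes of the count table. The list was put together with the levels of these genes in the same 9 libraries in view, so the members were chosen by the readout described here, and their differences between groups are given as a description without p-values. AdvSca1-SM cells are adventitial progenitor cells that carry the stem cell antigen Sca1 and descend from vascular smooth muscle. They were sorted as YFP+ and Sca1+ cells from aortas and carotid arteries of young adult SM22α-Cre-YFP mice, pooled across animals, in which Cre is driven by the promoter of the smooth muscle gene SM22α. The reporter therefore marks the whole smooth muscle lineage, and Sca1-bearing smooth muscle cells of the media could be among the sorted cells. Cells of early passage were kept for 72 h in 1 of 3 conditions, with 3 libraries each, and the labels give 24 h of growth arrest in 0.1% FBS as the step before treatment. The Stem group, which the labels call vehicle, was cultured in stem cell medium, whose maintenance form holds 10% FBS with 1 ng/mL bFGF and 5 ng/mL EGF. Whether the Stem cells also went through the low-serum step is not clear from the sources used here. The TGF-β group received 5 ng/mL TGF-β1 in DMEM with 0.1% FBS. The Both group received TGF-β1 at that dose together with 50 μM PFI-3, a ligand of the bromodomain of the chromatin remodeling ATPase Brg1 and its close relatives. All 3 groups carried 0.1% DMSO. Medium, serum, added growth factors and TGF-β1 may all differ between Stem and TGF-β, so their parts in any difference between those groups cannot be told apart. The comparison of TGF-β with Both asks what PFI-3 adds under TGF-β1.

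These proteins share a core of leucine-rich repeats closed by cysteine clusters, and most carry chondroitin, dermatan or keratan sulfate chains. They bind the surface of collagen fibrils, where they limit lateral growth and set spacing, and several of them also hold TGF-β and other growth factors in the matrix. In the artery wall decorin and biglycan are the best known members, and lumican, prolargin and mimecan are part of arterial matrix as well.

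Library totals lay between 35686291 and 47741128 counts, and 14879 genes passed the low-count filter. Levels are normalized counts, that is counts scaled to the mean library of 41184338 after TMM scaling, on which 3 counts correspond to 2.63 to 3.26 normalized counts. Replicate libraries had Spearman correlations across genes of 0.995 to 0.998. Stem replicate 2 stood apart from the other 2 Stem libraries, with a chi-square per degree of freedom of 127 and 104 against 7.42 between the other pair. The study calls the replicates of this experiment independent and those of its experiments in general biological, from mice of both sexes. Neither it nor the labels say whether these libraries came from separate pools of mice, sorts or cultures, so errors and p-values measure the spread between these libraries only. Summed progenitor markers (Ly6a, Cd34, Pdgfra, Scara5, Pi16, Dpp4) ranged from 50989 to 59312 normalized counts in Stem, 12195 to 12314 under TGF-β and 10605 to 11136 in Both. Pdgfra carried most of the Stem sum, at 45657 ± 2845, 5438 ± 283 and 6268 ± 347 in Stem, TGF-β and Both, and Ly6a, Cd34 and Scara5 also had lower means in TGF-β than in Stem. Pi16 went the other way, with 508 ± 22.8, 5771 ± 158 and 3828 ± 268, and Dpp4 did not pass the filter. Summed myofibroblast markers (Acta2, Postn, Tagln, Col1a1, Fn1) went from 329180 to 342215 in Stem up to 1125358 to 1203181 in TGF-β, and lay at 833527 to 879618 in Both. Most of that sum came from Col1a1 (means 83526, 707485 and 512443 in Stem, TGF-β and Both) and Fn1 (241757, 410051 and 318423). Each of these markers had its highest mean in TGF-β. Postn was at 2462 ± 241, 18524 ± 1711 and 5551 ± 602 in the same order. The labels name hepatic tissue in the extraction protocol, but of 5 hepatocyte markers only Apob exceeded 3 counts in any library, and Serpina1a was at 0 in all of them. Of 5 macrophage and leukocyte markers, Csf1r and Cd68 exceeded 3 counts and the list summed to 19.6 to 41.9 in Stem, 71 to 103 under TGF-β and 152 to 156 in Both. Endothelial markers summed to 51.8 to 77.1 over all 9 libraries, with opposite shifts within the list. Kdr was at 0.721 ± 1.25 in Stem and 26.1 ± 3.86 under TGF-β, and Tek at 45.7 ± 7.84 and 18.3 ± 3.19. The part of any of these marker shifts in the results below was not tested. In bulk RNA, fewer cells that express a gene and less of its RNA per cell cannot be told apart.

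Biglycan dominated the family in every condition. Per kilobase of its longest annotated transcript, the Bgn level was 31776 ± 1121 normalized counts per kb in Stem, 53911 ± 356 under TGF-β and 50149 ± 888 in Both (SD, n = 3 here and below). The next gene, Prelp in Stem, stood at 4016 ± 560 per kb. The 10 genes together took 0.344% ± 0.0135 of all counts in Stem, 0.369% ± 0.00265 under TGF-β and 0.339% ± 0.00361 in Both. On the scale of normalized counts their sum was 134433 ± 7089 in Stem, 156631 ± 1134 under TGF-β and 142881 ± 2240 in Both. The composition of the family differed between groups as well. Bgn made up 69.6% ± 2.77 of the family per kb in Stem, 93.2% ± 0.265 under TGF-β and 94.8% ± 0.153 in Both. The other 9 genes summed to 49717 ± 6510 normalized counts in Stem, 12904 ± 531 under TGF-β and 9183 ± 180 in Both. Class II genes (Lum, Fmod, Prelp, Omd, Kera) went from 19.1% ± 1.1 of the family per kb in Stem to 4.73% ± 0.247 under TGF-β and 3.58% ± 0.166 in Both.

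**Figure D1:**
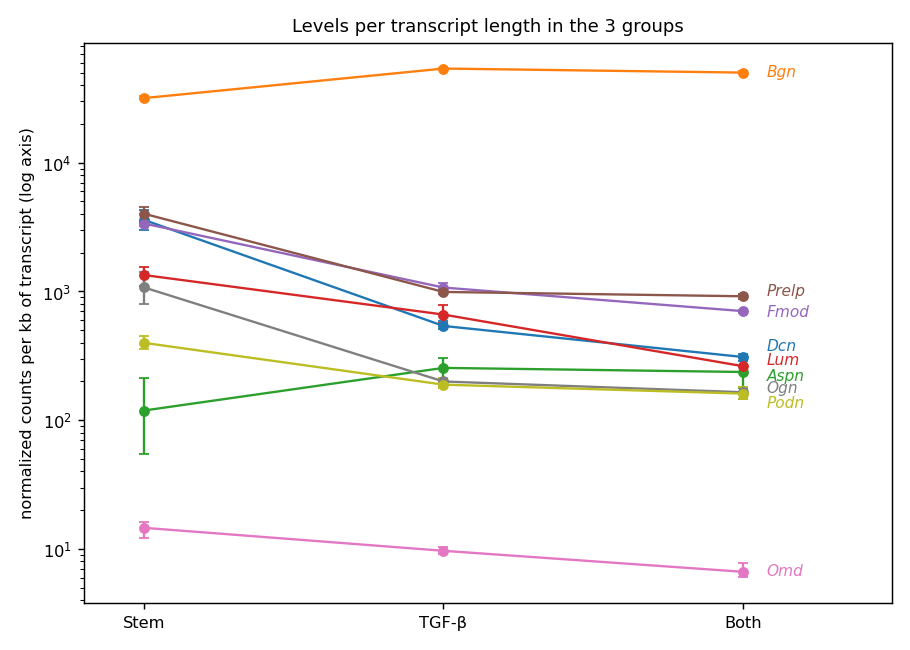
Level of 9 members per kb of longest transcript (log axis) in the 3 groups; points are means of 3 libraries and bars run from the lowest to the highest library. Bgn lies above every other gene in all 3 groups. The means of Prelp, Dcn, Fmod, Lum, Ogn, Podn and Omd lie lower under TGF-β and Both than in Stem, and that of Aspn lies higher. Kera is left out because it did not pass the low-count filter.

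The order below Bgn differed between groups, on the scale of normalized counts per kb. In Stem, Prelp, Dcn (3596 ± 653) and Fmod (3371 ± 130) had overlapping ranges, followed by Lum (1342 ± 225) and Ogn (1075 ± 307), which also overlapped. Podn (399 ± 46.6), Aspn (119 ± 82.6), Omd (14.6 ± 2.22) and Kera (2.18 ± 0.925) came next, each below the range of the gene before it. In TGF-β the order was Fmod (1073 ± 72), Prelp (992 ± 36.4), Lum (662 ± 112) and Dcn (540 ± 42.7), where only the last 2 overlapped. Aspn (255 ± 63.6), Ogn (200 ± 5) and Podn (189 ± 19.6) overlapped their neighbours in that order, above Omd (9.68 ± 0.637). In Both, Prelp (918 ± 43.9) and Fmod (704 ± 19.2) were apart from the rest, while Dcn (310 ± 21.5), Lum (263 ± 35.2), Aspn (237 ± 61.6), Ogn (165 ± 18.6) and Podn (161 ± 18.7) each overlapped the next. With the mean length of a gene's transcripts in place of the longest, 2 genes changed place in Stem, 5 under TGF-β and 4 in Both, and Bgn kept the first place in all 3 groups.

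Of the class I genes, Dcn (ENSMUSG00000019929) encodes decorin, which binds collagen fibrils and TGF-β. It was measured at 14148, 20186 and 16281 normalized counts in the Stem libraries, 2427, 2764 and 2407 under TGF-β and 1345, 1545 and 1470 in Both. The 3 groups did not overlap. The fitted log2 fold change was -2.74 (SE 0.113) from Stem to TGF-β, 6.66-fold lower, the largest difference of the 9 members that passed the filter, and a further -0.80 (SE 0.112) from TGF-β to Both. Bgn (ENSMUSG00000031375) encodes biglycan, the closest relative of decorin and a carrier of chondroitin or dermatan sulfate chains. It went the other way, with 83040, 82941 and 88166 normalized counts in Stem against 144745, 142868 and 143570 after TGF-β. The Both libraries held 136415, 132090 and 132589, between those groups and overlapping neither. The Bgn difference was 0.76 (SE 0.0406) from Stem to TGF-β, 1.70-fold and so under the fold required for a call, and -0.10 (SE 0.0404) from TGF-β to Both. The ratio of Bgn to Dcn per kb was therefore 9.02 ± 1.6 in Stem, 100 ± 8.08 under TGF-β and 162 ± 14.3 in Both. The size of this ratio depends on the lengths used, here the longest transcripts of 2666 bases for Bgn and 4692 for Dcn.

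Aspn (ENSMUSG00000021388) encodes asporin, a class I protein without a usual glycosaminoglycan chain that binds collagen and TGF-β1. Its Stem libraries were uneven, with 495, 128 and 211 normalized counts, a 3.86-fold spread. TGF-β held 714, 428 and 638 and Both held 702, 417 and 537. Stem replicate 1 lay above the lowest library of each treated group, so Aspn overlapped in every comparison. The fitted difference was 1.09 (SE 0.366) from Stem to TGF-β and -0.10 (SE 0.339) from TGF-β to Both. Leaving out single libraries moved the first value between 0.74 and 1.81, with 1.81 without Stem replicate 1 and 0.74 without Stem replicate 2.

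**Figure D2:**
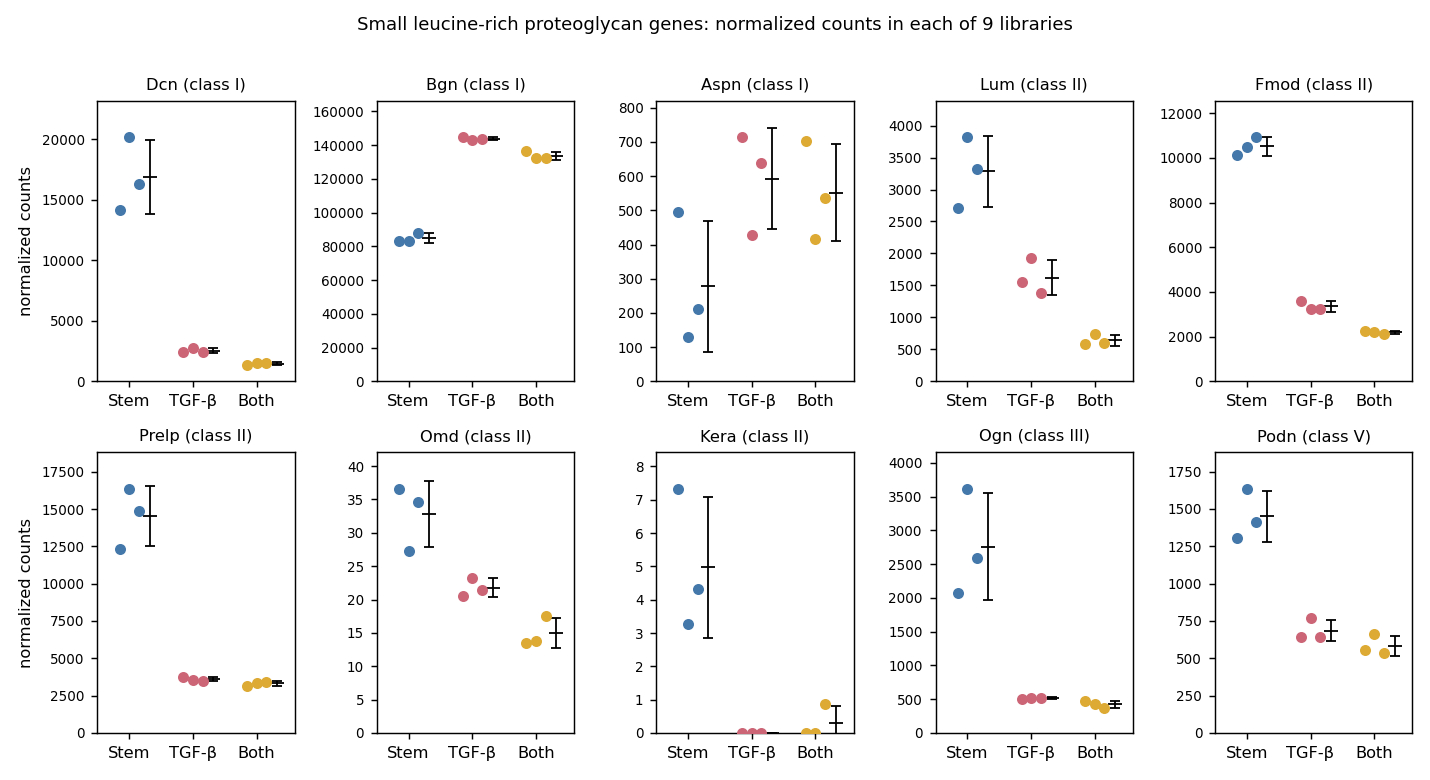
Normalized counts of each of the 10 genes in every library (points), with mean ± SD of 3 libraries beside them (black), on linear axes that start at 0 and differ between panels. Of the genes that passed the filter, Dcn, Fmod, Prelp, Ogn, Podn, Lum and Omd are lower in all TGF-β libraries than in all Stem libraries, and Bgn is higher. The Lum, Dcn, Fmod, Ogn, Prelp and Omd points step down again from TGF-β to Both, and the Bgn points step down there as well.

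Among the class II genes, Lum (ENSMUSG00000036446) encodes lumican, a keratan sulfate proteoglycan that organizes fibrils in cornea and skin. Its libraries held 2718, 3819 and 3320 normalized counts in Stem, 1552, 1925 and 1388 under TGF-β and 583, 742 and 606 in Both. The groups did not overlap, and Lum was the one member with a larger difference from TGF-β to Both than from Stem to TGF-β. The log2 fold change was -1.02 (SE 0.134) from Stem to TGF-β and -1.33 (SE 0.145), 2.52-fold lower, from TGF-β to Both. The -1.33 had rank 53 from the lowest of the 14879 genes tested. Fmod (ENSMUSG00000041559) encodes fibromodulin, which binds collagen at the same region of the fibril as lumican. It stood at 10122, 10494 and 10933 normalized counts in Stem, 3609, 3225 and 3214 under TGF-β and 2245, 2212 and 2128 in Both. All 3 Fmod groups were apart, with differences of -1.65 (SE 0.0511) and then -0.61 (SE 0.0514). The ratio of Lum to Fmod per kb was 0.398 ± 0.0617 in Stem, 0.620 ± 0.122 under TGF-β and 0.374 ± 0.0494 in Both.

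Prelp (ENSMUSG00000041577) encodes prolargin, which binds collagen and, through a basic end of the protein, heparan sulfate. It was at 12352, 16359 and 14843 normalized counts in Stem, 3721, 3577 and 3458 under TGF-β and 3139, 3370 and 3442 in Both. The Prelp difference was -2.02 (SE 0.0846) from Stem to TGF-β, 4.05-fold lower, and -0.11 (SE 0.0833) from TGF-β to Both, where the groups lay side by side without overlap. Omd (ENSMUSG00000048368) encodes osteomodulin, a keratan sulfate proteoglycan of mineralized tissue, and was rare here. Its levels were 36.6, 27.2 and 34.6 normalized counts in Stem, 20.5, 23.3 and 21.5 under TGF-β and 13.5, 13.8 and 17.6 in Both. The groups were apart in that order, with differences of -0.59 (SE 0.213) and -0.53 (SE 0.237), and -1.12 (SE 0.223) from Stem to Both. Kera (ENSMUSG00000019932) encodes keratocan, a protein of the cornea, and did not pass the filter. It had 7, 3 and 4 counts in the Stem libraries, 0 in each TGF-β library and 0, 0 and 1 in Both, and no fold is given.

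Ogn (ENSMUSG00000021390) encodes osteoglycin, also called mimecan, the class III member of the list and a protein of collagenous matrix and of the vessel wall. It was found at 2066, 3616 and 2596 normalized counts in Stem, 500, 522 and 521 under TGF-β and 468, 426 and 373 in Both. The Stem libraries spread more than the treated ones, but all 3 lay above every treated library. The Ogn difference was -2.42 (SE 0.168) from Stem to TGF-β and -0.28 (SE 0.182) from TGF-β to Both. Podn (ENSMUSG00000028600) encodes podocan, a class V member described in kidney and in smooth muscle. Its levels were 1303, 1635 and 1412 normalized counts in Stem, 645, 768 and 643 under TGF-β and 555, 662 and 536 in Both. Stem was apart from both treated groups, while TGF-β and Both overlapped. The Podn difference was -1.08 (SE 0.102) and then -0.23 (SE 0.106).

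A gene was called when its adjusted p was below 0.05 in edgeR's quasi-likelihood test and its fold change exceeded 2. From Stem to TGF-β, 6 of the 9 members that passed the filter were called lower (Lum, Dcn, Fmod, Ogn, Prelp, Podn) and 1 higher (Aspn), where 14.5% of all genes tested were called lower and 10.6% higher. The median log2 fold change of the 9 was -1.08, against 0 over all genes tested. From TGF-β to Both, 1 member was called lower (Lum) and 0 higher, where 0.470% of genes were called lower and 0.161% higher. At any fold, 3 members passed the adjusted p and were lower in Both (Lum, Dcn, Fmod) and 0 higher, beside 5.38% and 3.54% of all genes. The median of the 9 in that comparison was -0.28, again against 0. From Stem to Both, 7 members were called lower (the 6 above and Omd) and 0 higher, beside 13.2% and 9.55% of all genes. Since the members were chosen by these levels, nothing is read from their counts against those shares. The comparisons share libraries, so their values are set side by side only.

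Calls near the 2-fold line depended on single libraries. Without Stem replicate 2, 4 members were called from Stem to TGF-β (Dcn, Fmod, Ogn, Prelp), since Lum moved to -0.89, Podn to -0.98 and Aspn to 0.74. Without TGF-β replicate 1 or 3 the Lum value was -0.99 and -0.92. Aspn was called without Stem replicate 1 or TGF-β replicate 2, and was not called without Stem replicate 2 or 3 or TGF-β replicate 1 or 3, nor with scaling by total counts, where its value was 0.96. The call of Lum in Both against TGF-β held without each of the 9 libraries in turn, with values from -1.45 to -1.19.

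**Figure D3:**
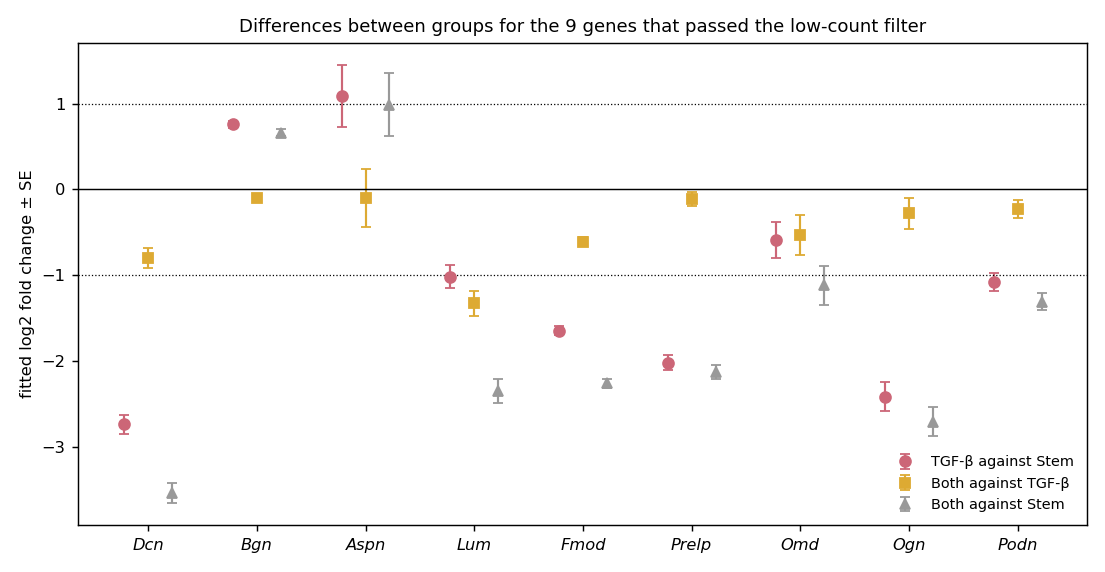
Fitted log2 fold change ± SE of the 9 members for TGF-β against Stem (circles), Both against TGF-β (squares) and Both against Stem (triangles); dotted lines mark 2-fold. Dcn, Ogn and Prelp lie at -2 or below for TGF-β against Stem, Bgn and Aspn lie above 0, and Lum is the gene whose square lies below the lower dotted line.

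Several members are neighbours in the genome. In the GENCODE M21 annotation (GRCm38), Dcn, Lum and Kera follow each other on the plus strand of chromosome 10, with the related gene Epyc next. Dcn and Lum were both lower under TGF-β than in Stem, with log2 fold changes of -2.74 and -1.02, and Epyc did not pass the filter (mean 9.61 ± 4.62 normalized counts in Stem, 3.73 ± 0.436 under TGF-β and 1.88 ± 1.04 in Both). On chromosome 13 the order on the plus strand is Ecm2, Aspn, Omd and Ogn. In that row Ecm2, Omd and Ogn were lower in TGF-β than in Stem and Aspn, which lies between them, was higher, so that the ratio of Aspn to Ogn per kb was 0.131 ± 0.118 in Stem, 1.28 ± 0.344 under TGF-β and 1.44 ± 0.313 in Both. The whole stretch from Aspn to Ogn lies within the opposite-strand gene Cenpp, which had 116 counts over all 9 libraries, and the strand setting of the counting is not given in the sources used here. Prelp lies on the minus strand of chromosome 1 next to Optc, with an antisense transcript of 2 counts in all, and Fmod is on the plus strand of the same chromosome. Podn lies on the minus strand of chromosome 4 and overlaps Scp2 on its own strand (43233 counts), so reads in the shared stretch carry some uncertainty. Bgn is on the X chromosome.

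Promoter sequence was at hand for 8 of the 10 genes, all but Dcn and Lum, as RefSeq windows on GRCm38.p6. The 250 bases before the annotated start were searched on both strands. The windows of Bgn and Aspn, the members that were higher in TGF-β, are shown beside those of Ogn, which lies near Aspn and moved the other way, and of Fmod, which was lower in both steps. Letters run 5′ to 3′ on the strand of the gene and end at the base before the start. Capitals mark matches to the SMAD box CAGAC, the TEAD motif GGAATG or the TATA box TATAAA, or to their reverse complements.
Bgn (chrX:73483351-73483600, plus strand): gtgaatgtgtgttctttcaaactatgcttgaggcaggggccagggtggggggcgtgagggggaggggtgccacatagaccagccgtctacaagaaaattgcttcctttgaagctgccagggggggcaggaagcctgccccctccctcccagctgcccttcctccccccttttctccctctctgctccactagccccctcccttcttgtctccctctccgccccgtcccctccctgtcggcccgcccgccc
Aspn (chr13:49544193-49544442, plus strand): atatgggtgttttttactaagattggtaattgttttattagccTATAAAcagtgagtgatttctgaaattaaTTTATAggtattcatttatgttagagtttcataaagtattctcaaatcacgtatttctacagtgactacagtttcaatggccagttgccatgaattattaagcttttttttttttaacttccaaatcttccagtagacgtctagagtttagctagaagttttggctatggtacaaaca
Ogn (chr13:49607765-49608014, plus strand): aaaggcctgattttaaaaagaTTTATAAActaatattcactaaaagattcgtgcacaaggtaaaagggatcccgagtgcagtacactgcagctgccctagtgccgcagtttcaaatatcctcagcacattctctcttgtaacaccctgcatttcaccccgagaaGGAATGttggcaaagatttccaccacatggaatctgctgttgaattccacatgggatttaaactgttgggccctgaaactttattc
Fmod (chr1:134037004-134037253, plus strand): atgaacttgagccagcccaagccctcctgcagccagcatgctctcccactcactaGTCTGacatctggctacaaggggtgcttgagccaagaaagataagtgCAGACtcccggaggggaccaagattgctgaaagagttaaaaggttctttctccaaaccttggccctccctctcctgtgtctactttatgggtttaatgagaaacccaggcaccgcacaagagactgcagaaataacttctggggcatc
Base composition set them apart, with 64.4% G and C before Bgn, 30% before Aspn, 42% before Ogn and 51.2% before Fmod, against a median of 52.4% over all 32851 windows. The SMAD box was found at 2 places before Fmod and at 1 before Prelp, and in 0 of the windows of Bgn, Aspn, Omd, Kera, Ogn and Podn, where 42.2% of all windows held it. The SMAD palindrome GTCTAGAC (0.167% of all windows, with no whole match to CAGAC in it) and the AP-1 motif TGANTCA (6.75%) matched none of the 8 members searched. The TEAD motif was found before Ogn, 86 to 81 bases ahead of the start, and before no other member searched, where 12.6% of all windows held it. TATAAA or its reverse complement occurred 2 times each before Aspn and Ogn, in overlapping letters before Ogn, with 12.4% of all windows as background, and none of these lay closer than 173 bases to the start. The E-box CANNTG, left in lower case, was found in the windows of Bgn, Aspn, Fmod, Ogn and Podn, as in 66.2% of all windows. A match describes the letters only.

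For each member with at least 100 mean normalized counts, the non-member genes with the nearest pattern over the 9 libraries were sought among 10891 genes by the distance between centred log2 values. Lum was nearest to Il33, an alarmin cytokine (distance 0.544), whose mean went from 1372 in Stem to 795 under TGF-β and 348 in Both, and to the acute phase protease inhibitor Serpina3n (0.592). Dcn was nearest to the complement protease gene C1s1 (0.404; means 27588, 4113 and 2829 in Stem, TGF-β and Both) and to 1500015O10Rik (0.457). Card10 was among the 2 genes nearest to Fmod (0.298). Bgn lay closest of all to its neighbour in this measure, the chaperone gene Hsp90ab1 (0.0561; means 46915, 78182 and 72922), followed by Prelid1 (0.0798). Ogn was nearest to Kitl, the ligand of the receptor Kit (0.433), and Kcnab1 (0.489), Prelp to the transcription factor gene Ebf1 (0.167) and Ptk7 (0.292), and Podn to Otud1 (0.152) and Tbc1d16 (0.258). Aspn had the most distant neighbours, Prrg4 (0.641) and Serinc2 (0.848). Between members, Fmod and Prelp were the closest pair (0.690) and Dcn and Aspn the farthest (6.53).

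A further 9 leucine-rich genes of the extracellular matrix were examined, of which 5 passed the filter. Here and in the lists that follow, genes that rose or fell are called genes unless any fold is stated. The background for these counts over all genes tested is 10.6% called higher and 14.5% called lower from Stem to TGF-β. From TGF-β to Both it is 0.161% called higher and 0.470% called lower. The lists were chosen with earlier results of these data known, and genes were named from them by their changes in these same libraries. The adjusted p-values printed with named genes are therefore a description and not independent support. The median log2 fold change of the 5 genes was 0.12 from Stem to TGF-β and -0.06 from TGF-β to Both. Ecm2, whose product is a leucine-rich matrix protein, fell from 120, 165 and 175 normalized counts in Stem to 35.6, 40.6 and 33.2 under TGF-β and to 14.4, 15.8 and 10.5 in Both. The groups were apart at each step, with differences of -2.07 (SE 0.183, edgeR adjusted p = 5.63e-07) and -1.42 (SE 0.26, edgeR adjusted p = 0.00555). Chadl, a chondroadherin-like protein that binds collagen, was at 25.1 ± 4.52 in Stem and 27.2 ± 0.222 under TGF-β and fell to 11.5 ± 2.9 in Both (-1.25, SE 0.254, edgeR adjusted p = 0.00985). It was not called without Both replicate 1, where the value was -1.16 and the edgeR adjusted p was 0.0502. Podnl1, a class V relative of Podn named here after its value was seen because it was the 1 gene of this group called higher, went from 44.6 ± 11.4 to 111 ± 16.4 from Stem to TGF-β (1.31, SE 0.263, edgeR adjusted p = 0.000673).

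Most of the collagen genes whose fibrils these proteins coat rose from Stem to TGF-β. Of 11 fibrillar collagen genes, 9 rose and 2 fell from Stem to TGF-β, with a median of 2.30, and 3 fell and 0 rose from TGF-β to Both, with a median of -0.47. The rises include Col11a2 and the falls Col24a1, named here after their values were seen because their calls depended on single libraries. Col11a2 was at 0.78 without Stem replicate 3, and Col24a1 at -0.75 without Stem replicate 2. At any fold, 8 of the 11 had an adjusted p below 0.05 and were lower in Both and 0 were higher. Of all genes tested, 5.38% were lower and 3.54% higher by that measure. Col2a1 rose from 33.5, 29.3 and 36.8 normalized counts in Stem to 1522, 1630 and 1701 in TGF-β (5.60, SE 0.129, edgeR adjusted p = 3.19e-12) and fell to 609, 699 and 534 in Both (-1.40, SE 0.0842, edgeR adjusted p = 3.94e-06). Col11a1, which is built into the core of fibrils, rose from 2788 ± 194 to 34162 ± 272 (3.62, SE 0.059, edgeR adjusted p = 2.83e-13) and stood at 24958 ± 1386 in Both. Col5a3 fell from 1150 ± 123 in TGF-β to 494 ± 40 in Both (-1.22, SE 0.123, edgeR adjusted p = 0.000128). Col3a1, a major fibril collagen of arteries, rose from 104354 ± 21074 in Stem to 211014 ± 18706 under TGF-β and fell to 104994 ± 14476 in Both, with differences of 1.02 (SE 0.131, edgeR adjusted p = 1.8e-05) and -1.01 (SE 0.131, edgeR adjusted p = 0.000634). Both Col3a1 calls lay at the 2-fold line: the rise was 0.89 without Stem replicate 1, 0.99 without Stem replicate 3 and 0.94 without TGF-β replicate 2, and the fall was -0.93 without TGF-β replicate 2 and -0.95 without Both replicate 1 or 3.

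Of 9 proteins that lie on fibrils or microfibrils with these proteoglycans, 3 genes rose and 2 fell from Stem to TGF-β (median -0.25), and from TGF-β to Both 1 fell and 0 rose (median -0.39). At any fold, 4 passed the adjusted p and were higher and 5 lower in TGF-β than in Stem, and 7 were lower and 0 higher in Both than in TGF-β. By that measure, 11158 of all 14879 genes tested passed from Stem to TGF-β. In Both against TGF-β, 5.38% of all genes tested were lower and 3.54% higher. Eln, which encodes elastin, rose from 262, 451 and 365 normalized counts in Stem to 414025, 468605 and 419909 in TGF-β (10.24, SE 0.196, edgeR adjusted p = 8.13e-13). It fell to 210265, 226092 and 177002 in Both (-1.09, SE 0.13, edgeR adjusted p = 0.00039), a call lost without Both replicate 3, at -0.99. Col12a1, a collagen that coats fibrils, rose from 3710 ± 12.6 to 27725 ± 828 (2.90, SE 0.0469, edgeR adjusted p = 2.83e-13). Tnxb, whose product tenascin-X binds decorin and collagen, fell from 22791 ± 3027 in Stem to 619 ± 104 in TGF-β (-5.20, SE 0.164, edgeR adjusted p = 4.29e-11) and was at 819 ± 168 in Both. Dpt, which encodes dermatopontin, a binding partner of decorin, fell from 27090 ± 468 to 4967 ± 878 (-2.45, SE 0.137, edgeR adjusted p = 7.94e-09) and was at 4529 ± 820 in Both.

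Enzymes that build the linker and the chondroitin or dermatan sulfate chains of Bgn and Dcn included 23 genes, all of which passed the filter. From Stem to TGF-β 5 rose and 1 fell (median 0.24), and from TGF-β to Both 0 were called in either direction (median 0.12). At any fold, 7 of them had an adjusted p below 0.05 and were higher in Both and 3 were lower. Of all genes tested, 3.54% were higher and 5.38% lower by that measure. Chsy3, a chondroitin synthase gene, rose from 105 ± 18 to 308 ± 43.6 (1.55, SE 0.142, edgeR adjusted p = 8.24e-07), and B4galt7, which adds the first galactose of the linker, from 636 ± 19 to 1800 ± 71.3 (1.50, SE 0.0492, edgeR adjusted p = 6.16e-11). Pxylp1, which encodes the phosphatase that removes the phosphate from linker xylose, fell from 1800 ± 60.8 to 574 ± 54.8 (-1.65, SE 0.0701, edgeR adjusted p = 6.16e-10). Of 9 genes of keratan sulfate synthesis, 6 passed the filter, and 2 sulfotransferase genes fell from Stem to TGF-β (median 0.15). These were Chst2, from 3119 ± 1158 to 1042 ± 59.9 (-1.58, SE 0.204, edgeR adjusted p = 1.81e-05), and Chst1, from 344 ± 57.7 to 141 ± 20.3 (-1.28, SE 0.145, edgeR adjusted p = 5.4e-06). From TGF-β to Both, 0 of the 6 were called (median 0.19), and 0 passed the adjusted p at any fold.

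Propeptide-processing proteases and their enhancers, which ripen procollagen and some of these core proteins, had 4 of 5 genes tested. Pcolce2, an enhancer of procollagen C-proteinase, rose from 300 ± 43.1 in Stem to 978 ± 148 in TGF-β (1.71, SE 0.122, edgeR adjusted p = 7.76e-08), 0 of the list fell, and 0 were called from TGF-β to Both (medians 0.06 and -0.20). With an adjusted p below 0.05 at any fold, 2 were higher and 2 lower in TGF-β than in Stem, and 1 was lower and 0 higher in Both than in TGF-β. For this list and the next, the background by that measure is 11158 of all 14879 genes from Stem to TGF-β. From TGF-β to Both it is 5.38% lower and 3.54% higher. Of 12 growth factors and receptors bound by these core proteins, 5 genes rose and 3 fell from Stem to TGF-β (median 0.06), and 0 were called from TGF-β to Both (median -0.02). By the same measure, 6 were higher and 6 lower in TGF-β than in Stem, and 3 were higher and 2 lower in Both than in TGF-β. Ccn4, a secreted protein that binds decorin and biglycan, rose from 1898 ± 214 to 21236 ± 288 (3.48, SE 0.0691, edgeR adjusted p = 1.07e-12), and Ccn2, connective tissue growth factor, from 31085 ± 5622 to 144285 ± 4374 (2.21, SE 0.0996, edgeR adjusted p = 1.04e-09). Egfr, a receptor that decorin binds, fell from 31886 ± 2060 to 6916 ± 118 (-2.20, SE 0.0545, edgeR adjusted p = 5.67e-12). Tlr4, an innate immune receptor for soluble biglycan, fell from 6592 ± 132 to 2098 ± 29.7 (-1.65, SE 0.0363, edgeR adjusted p = 2.2e-12).

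Enzymes reported to cut these core proteins had 8 of 9 genes tested, with 1 rise and 3 falls from Stem to TGF-β (median -0.86) and 0 calls from TGF-β to Both (median -0.28). At any fold, 2 passed the adjusted p and were higher and 6 lower in TGF-β than in Stem, and 5 were lower and 0 higher in Both than in TGF-β. Over all 14879 genes tested, 11158 passed by that measure from Stem to TGF-β. From TGF-β to Both, 5.38% of them all were lower and 3.54% higher. Mmp3, the protease stromelysin 1, fell from 119150, 117707 and 117621 normalized counts in Stem to 5988, 5453 and 5431 in TGF-β (-4.39, SE 0.0614, edgeR adjusted p = 9.75e-14). Adamts5, an aggrecanase, fell from 41779 ± 6350 to 7191 ± 1271 (-2.54, SE 0.146, edgeR adjusted p = 1.06e-08). Mmp13, a collagenase known to cleave fibromodulin, rose from 28 ± 11.6 to 193 ± 10.5 (2.79, SE 0.197, edgeR adjusted p = 6.89e-08) and was at 123 ± 12.7 in Both. The median over all genes tested was 0 in both comparisons.

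**Figure D4:**
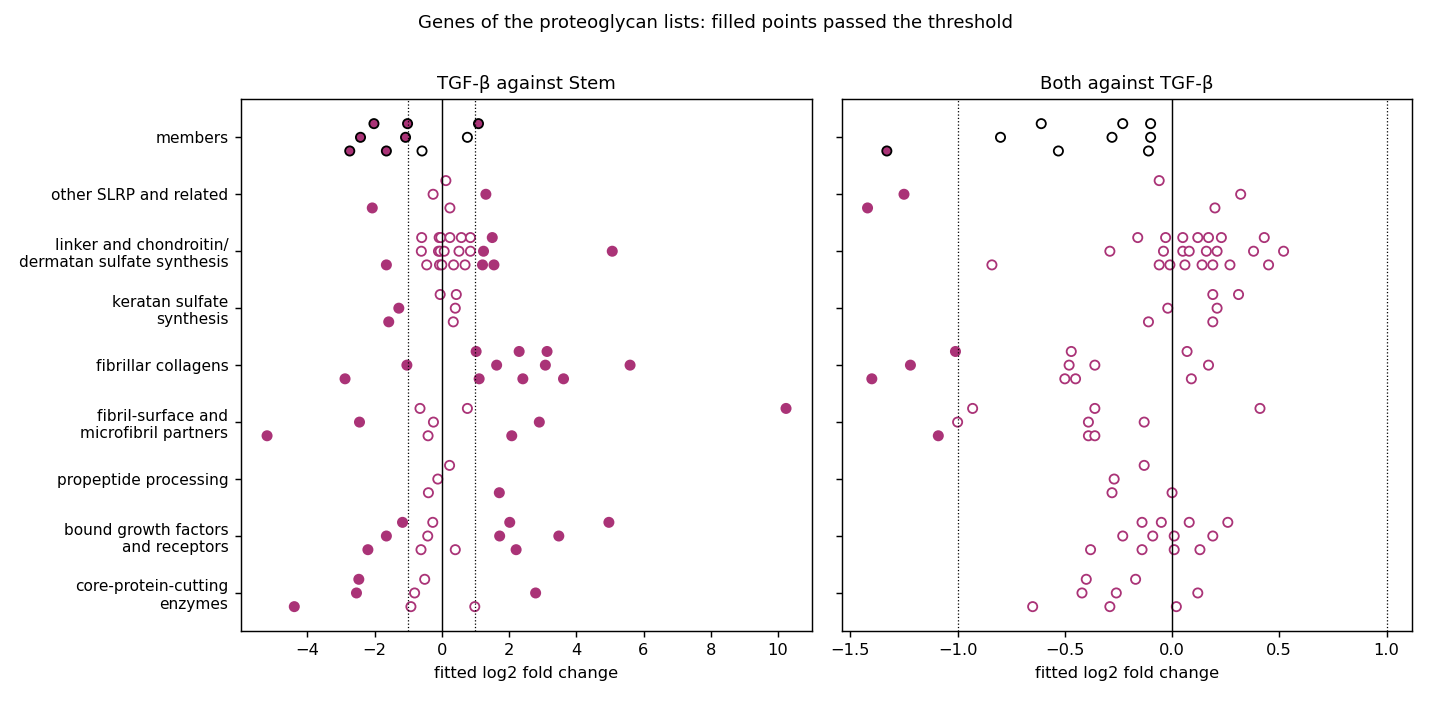
Fitted log2 fold change of each gene that passed the filter, for the members (black outlines) and the 8 lists of related genes, for TGF-β against Stem (left) and Both against TGF-β (right, on a narrower axis). Filled points passed the threshold and dotted lines mark 2-fold; on the left the fibrillar collagens lie mostly to the right of 0 and the members mostly to the left, and on the right the filled points are Lum, Ecm2, Chadl, Col2a1, Col5a3, Col3a1 and Eln.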

How the data were processed

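RNA was sequenced from 9 libraries (stranded, ribosome-depleted, paired-end). The table the authors deposited holds unnormalized counts of reads for each Ensembl gene. The paper names Flexbar and STAR on GRCm39, while the submitters' processing notes name HISAT2 2.2.1, SAMtools 1.13 and HTSeq 0.11.3 on GRCm39. Neither the strand setting nor the handling of multi-mapped reads is given in the sources used here. Symbols were paired with 52083 of 55416 identifiers, which hold 98.1% of all counts. GENCODE M21 supplied transcript lengths and neighbours only, because its build differs, and RefSeq (GRCm38.p6) the promoters.

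The analysis used edgeR 4.0.16 and limma 3.58.1 under R 4.3.3 (filterByExpr, TMM scaling, a single quasi-likelihood fit by group to the 9 libraries, Benjamini-Hochberg adjustment over 14879 genes, prior count 0.125). Called genes had an adjusted p below 0.05 and a fold change over 2. The code was tested on simulated data. DESeq2 1.42.0 and other settings were alternatives. The labels do not say that libraries of the same number share an origin, and the replicate block was an alternative.

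The members and gene lists were chosen with earlier results of these data known. Named genes are the members, list genes called between TGF-β and Both, the 2 largest rises and falls per list from Stem to TGF-β with at least 100 mean normalized counts, and the 2 nearest patterns per member. A gene that this rule named is not reported here.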

Additional observations from a re-analysis of the deposited data

How the results depend on the processing

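The signs of the members' differences were the same under all 17 alternatives apart from Aspn between TGF-β and Both, which was not called and became 0.05 without TGF-β replicate 1 and 0.06 without Both replicate 2. With DESeq2, its size factors or a prior count of 2 the called members were those of the main analysis in each comparison. Scaling by total counts shifted the median of all genes to -0.12 from Stem to TGF-β and -0.11 from Stem to Both, and Aspn was then not called higher. Without a fold minimum, 11158 genes passed from Stem to TGF-β in place of 3739, 1327 from TGF-β to Both in place of 94 and 10900 from Stem to Both in place of 3385. The genes of the 8 related lists then numbered 67, 38 and 70 in place of 39, 6 and 41, and 3 members passed from TGF-β to Both in place of 1. Without the filter on low counts 163 genes were called from TGF-β to Both, and Kera joined the members called lower against Stem. With mean transcript lengths 2, 5 and 4 members changed place by level per kb in Stem, TGF-β and Both. Leaving out each library in turn gave 3675 to 3742, 67 to 123 and 3301 to 3473 called genes in the order of comparisons above, 4 to 7, 1 to 1 and 7 to 8 called members, and 36 to 39, 4 to 7 and 39 to 41 called list genes. With 2 libraries left in a group the spread is taken from all groups. A replicate block gave 3736, 120 and 3394 called genes and 7, 1 and 8 called members, the addition being Aspn from Stem to Both. Deviations of libraries with the same number correlated between -0.05 and 0.20 and those of libraries with different numbers between -0.18 and 0.17. The 3 pairs numbered 2 lay between 0.14 and 0.20, but 5 of the 9 same-number pairs did not exceed 0.1 and not every library correlated best with its own number, so the block was kept as an alternative and a shared origin of same-numbered libraries was not settled. Depth limits Kera, at 7 counts or fewer in every library, and Omd, at under 40 normalized counts.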

Other observations

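Within each group, the library numbered 2 stood at the same end for several members. Lum, Dcn and Podn had their highest normalized count in replicate 2 of Stem, of TGF-β and of Both, and Aspn and Bgn had their lowest there. Over all 14879 genes tested, 12.1% were highest and 12.4% lowest in replicate 2 of all 3 groups, against 6.95% and 6.12% for replicate 1 and 2.54% and 2.26% for replicate 3. The labels do not say that libraries of the same number share a culture or a day.

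The levels of cartilage markers, which are outside the lists above, are given here as a description. Acan, which encodes aggrecan, was at 0.349 ± 0.604 normalized counts in Stem, 49 ± 1.19 under TGF-β and 13.3 ± 4.38 in Both, and Col10a1 had 1.79 ± 0.648, 72.2 ± 4.63 and 47.5 ± 8.37. Comp, a cartilage marker whose product binds fibrillar collagens, was at 925 ± 48.5, 1070 ± 102 and 781 ± 90.9 in the same order. Matn1 was at 0 in every library, and Col9a1 did not exceed 3 counts in any.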
